A study of Mus musculus with 32 samples.

Results

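The genes described here are 9 that encode antioxidant enzymes, Cat, Sod1, Sod2, Sod3, Gpx3, Prdx6, Hmox1, Nqo1 and Gclc, and Nox4, which encodes an oxidase that makes hydrogen peroxide. They were followed in the lungs of C57BL/6 mouse pups that received injections commonly used as controls or as a Cre inducer. The rows were found by gene symbol, and all 10 symbols were present among 18853 genes that had at least 1 exon read. All 10 genes passed the filter on low counts at both ages. Levels are exon read counts scaled to library size (CPM, scaled by the trimmed mean of M-values over all 32 libraries), given for the 4 libraries of each of 8 groups. The members were chosen by measured values, since results of these data were known. Catalase had been seen in daily saline against untreated pups, Nox4 in water against untreated and in Scrambled 2 against water, and Sod3 in Scrambled 1 against water, so those 4 pairs of gene and comparison are given as values without a test.

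Superoxide, which forms when oxygen takes up a single electron, is converted to hydrogen peroxide by superoxide dismutases, of which Sod1 encodes the cytosolic, Sod2 the mitochondrial and Sod3 the secreted form. Hydrogen peroxide is then removed by catalase in peroxisomes, by glutathione peroxidases such as the secreted Gpx3, and by peroxiredoxins such as Prdx6, which is abundant in lung and also acts on surfactant phospholipids. Gclc encodes the catalytic subunit of the enzyme that limits glutathione synthesis, Hmox1 the inducible haem oxygenase and Nqo1 a quinone reductase. All 3 of these are textbook targets of the transcription factor NRF2. Nox4 encodes an NADPH oxidase of fibroblasts, smooth muscle and endothelium. In the newborn lung these systems develop while alveoli form and while the tissue adapts to breathing air.

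Bulk RNA was selected for polyA and sequenced from perfused lungs of pups assigned to treatment at random at birth with litters balanced. At day 6, 3 groups put down with pentobarbital had received intraperitoneal injections on days 1 and 2. These were saline (25 µl), the carrier oil Miglyol (25 µl), a mixture of medium-chain triglycerides, or tamoxifen (0.4 mg in 25 µl Miglyol), the oestrogen receptor ligand used to switch on Cre-ER. At day 14, 5 groups put down with isoflurane were untreated pups, pups injected each day with saline (25 µl per g, days 1 to 13), pups injected on days 1 and 3 with nuclease-free water at 10 µl per g, and pups that received Scrambled 1 or Scrambled 2 in water on those same 2 days (10 mg per kg). Scrambled 1 and Scrambled 2 are locked nucleic acid oligonucleotides sold as controls for microRNA inhibitors. The labels do not tie libraries to separate animals, so the p-values below measure the spread between these libraries, which may be technical.

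Libraries held 7918537 to 12443221 exon reads. For members the exon reads per library ran from 22 to 83 for Nqo1, the sparsest gene, and from 1379 to 2527 for Sod1. Between 79.7% and 84.2% of the Sod1 reads and at least 93.8% of the Sod2 reads mapped uniquely, against at least 99.95% for each of the other 8 genes, so Sod1 values are uncertain where other copies share its reads. Lung markers were high in every group, with summed alveolar type 2 markers of 14193 CPM or more on average. The water library of replicate 3 stood apart with 397 CPM of skeletal muscle markers against 6.47 to 10.4 in the other 3 water libraries, and with 423 CPM of adipose markers against 42.9 to 61.3. Xist, which marks female tissue, was above 10 CPM in 0 of 4 water libraries, 3 untreated, 2 daily saline, 2 Scrambled 1 and 1 Scrambled 2 library. The share of intron reads averaged 10.0% in daily saline libraries and 12.4% to 14.1% in the other day 14 groups. In bulk lung, fewer cells of a type and less RNA per cell cannot be told apart.

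Upstream sequence is shown for 3 members whose day 6 or age results are described below. RefSeq's promoter table for GRCm38.p6 matched 6 of the 10 symbols, Cat, Sod1, Sod2, Gpx3, Nqo1 and Nox4. The windows hold 250 bases before and 50 after each transcription start and were searched on both strands for TGACNNNGC, the core of the antioxidant response element that NRF2 binds. Of 32851 windows in the table, 12.4% held those letters. Of the 6 member windows 1 did, that of Sod1, where the core lies on the strand opposite to the gene and its first printed base is at -56 from the start. It does not overlap the AP-1 letters TGACTCA. The 250 bases before the start are given 5′ to 3′ on the strand of the gene, in lower case, with the Sod1 match, read on the gene's strand, in capitals. Their GC content was 66.4% for Sod1, 55.2% for Gpx3 and 53.2% for Nqo1, against a median of 52.4% over all windows of the table.
Sod1, GRCm38.p6 chr16:90220512-90220761, plus strand: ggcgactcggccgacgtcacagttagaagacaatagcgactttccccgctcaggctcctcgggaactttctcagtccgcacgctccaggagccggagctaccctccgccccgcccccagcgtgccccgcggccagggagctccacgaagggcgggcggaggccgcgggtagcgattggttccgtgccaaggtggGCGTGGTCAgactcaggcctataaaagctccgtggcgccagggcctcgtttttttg
Gpx3, GRCm38.p6 chr11:54902604-54902853, plus strand: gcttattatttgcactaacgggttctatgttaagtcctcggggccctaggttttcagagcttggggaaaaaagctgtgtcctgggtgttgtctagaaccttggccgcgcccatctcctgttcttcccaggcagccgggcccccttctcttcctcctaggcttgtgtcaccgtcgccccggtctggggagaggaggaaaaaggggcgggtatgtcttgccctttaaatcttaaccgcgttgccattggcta
Nqo1, GRCm38.p6 chr8:107403206-107403455, minus strand: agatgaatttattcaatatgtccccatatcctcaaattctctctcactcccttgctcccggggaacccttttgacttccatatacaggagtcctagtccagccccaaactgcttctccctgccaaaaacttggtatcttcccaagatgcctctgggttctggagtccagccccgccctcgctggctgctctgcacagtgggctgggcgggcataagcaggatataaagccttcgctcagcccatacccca
A match of letters is a description and not a bound site, and a window without a match says nothing about sites elsewhere. The deposited gene coordinates put Cat on chromosome 2 (103453904 to 103485153), Sod1 on 16 (90220742 to 90226324), Sod2 on 17 (13007839 to 13018119), Sod3 on 5 (52363804 to 52369738) and Gpx3 on 11 (54902854 to 54910382). Prdx6 lies on chromosome 1 (161240112 to 161251210), Hmox1 on 8 (75093618 to 75100593), Nqo1 on 8 (107388225 to 107403205), Gclc on 9 (77754516 to 77794489) and Nox4 on 7 (87246405 to 87398710). The values below count reads over all exons of each gene.

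Per length of transcript (the authors' TPM values, meant over the libraries of an age), Sod1 was the most abundant of the 10 transcripts at both ages, with 739.6 TPM at day 6 and 772 at day 14. At day 6 it was followed by Prdx6 (219 TPM), Cat (179), Gpx3 (114), Gclc (59.1), Hmox1 (49.7), Sod3 (44.6), Nox4 (41.1), Sod2 (33.9) and Nqo1 (9.43). By day 14 the secreted enzymes had moved up that order. Gpx3 stood at 448 TPM, Prdx6 at 327, Sod3 at 246 and Cat at 195, and the other 5 lay at or below 55.0 TPM. The plot of levels by group shows each gene in each library.

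**Figure D1:**
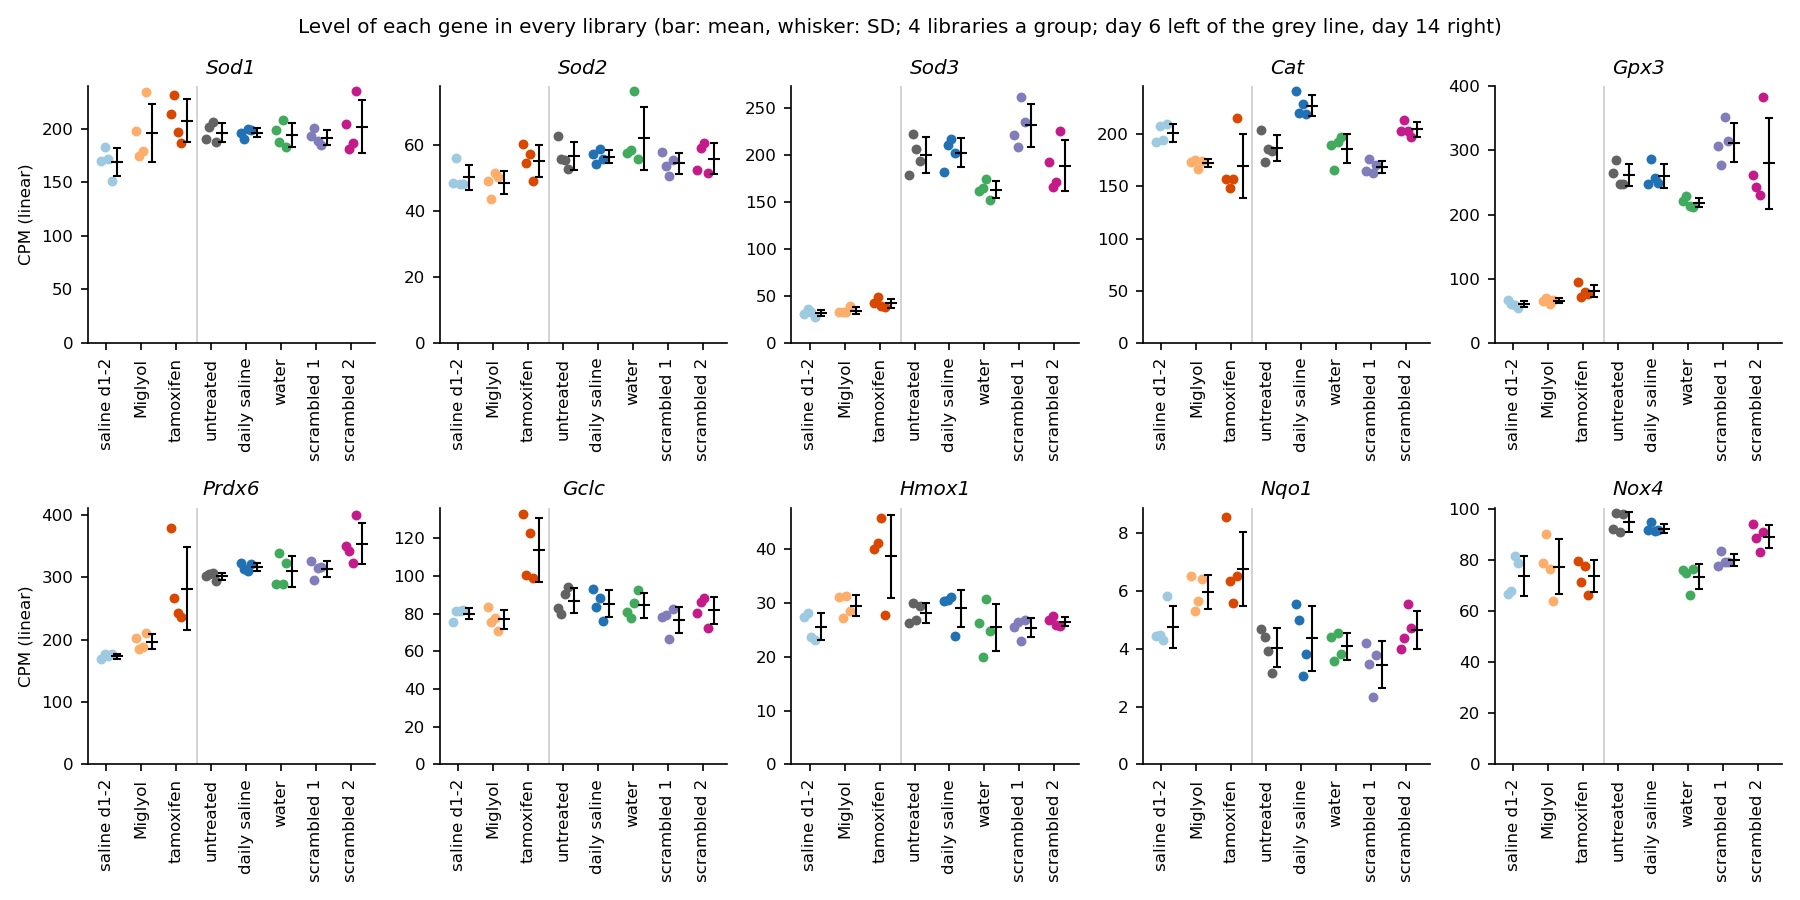
Level of each of the 10 genes (CPM, linear axis from 0) in every library, by group; points are libraries, the bar is the mean and the whisker the SD of 4 libraries, and the grey line parts day 6 from day 14. Sod3 and Gpx3 are the only 2 genes whose day 14 libraries all lie above all of their day 6 libraries.

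Among the treatment comparisons, those with tamoxifen at day 6 called the most members. Against Miglyol, the oil it was dissolved in, 3 of the 10 genes rose, Gclc, Prdx6 and Gpx3, and the other 7 did not pass the test. Over all genes tested, 5.68% passed the same threshold and 3.71% did so upwards (edgeR quasi-likelihood test, Benjamini-Hochberg adjusted p below 0.05). The median log2 change of the members was 0.24, beside -0.00 over all 14107 genes. Since the members were chosen with results of these data known, the day 6 counts and medians are a description and no independent support.

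Gclc, the gene for the catalytic subunit of glutamate-cysteine ligase, stood at 133, 100.3, 123 and 98.9 CPM in the 4 tamoxifen libraries. The Miglyol libraries held 83.5, 75.4, 77.7 and 71.0 CPM and the saline libraries 75.7, 81.3, 81.5 and 81.7 CPM. Every tamoxifen library lay above every other day 6 library. The log2 change was 0.57 (SE 0.08, edgeR adjusted p = 0.000836) against Miglyol and 0.50 (SE 0.08, edgeR adjusted p = 0.000660) against saline, both of which kept their side of the threshold when any 1 library was left out. Miglyol and saline differed by -0.06 (SE 0.09, edgeR adjusted p = 0.665, 95% interval -0.23 to 0.11).

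Prdx6, the peroxiredoxin that also has phospholipase activity, stood at 379, 267, 243 and 236 CPM with tamoxifen. It was 203, 186, 188 and 211 CPM with Miglyol and 168, 176, 173 and 177 CPM with saline. The 3 groups did not overlap, and the first tamoxifen library was far above the other 3. The rise over Miglyol was 0.52 on the log2 scale (SE 0.12, edgeR adjusted p = 0.0163). It was 0.34 without tamoxifen replicate 1 (edgeR adjusted p = 0.00899) and missed the threshold without Miglyol replicate 2 (0.50, edgeR adjusted p = 0.0510). The call was also lost with exon-exon reads (0.49, edgeR adjusted p = 0.0996) and with only the Miglyol and tamoxifen libraries in the fit (0.52, edgeR adjusted p = 0.0614).

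Gpx3, the secreted glutathione peroxidase, held 94.6, 72.3, 79.0 and 76.8 CPM with tamoxifen, 65.5, 70.7, 60.8 and 66.6 with Miglyol, and 66.7, 60.8, 59.2 and 54.9 with saline. The lowest tamoxifen library was just above the highest library of the other groups. The rise over Miglyol was 0.29 (SE 0.08, edgeR adjusted p = 0.0385). It missed the threshold in 5 of the 8 fits that left out 1 library of the groups compared, at 0.21 (edgeR adjusted p = 0.153) without tamoxifen replicate 1, 0.31 (0.0625) without tamoxifen replicate 3, and 0.29 (0.0993), 0.27 (0.123) and 0.30 (0.0602) without Miglyol replicates 1, 3 and 4. It missed it too with exon-exon reads (0.25, edgeR adjusted p = 0.444) and with only the 2 groups in the fit (0.29, edgeR adjusted p = 0.0751).

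Against saline on the same 2 days, 7 of the 10 genes rose with tamoxifen in Miglyol and the other 3 did not pass, where 23.7% of all genes tested were called, 11.3% upwards. The members' median log2 change was 0.41 beside 0.01 over all genes. Count and median are again a description of members chosen with results known. This comparison holds the oil as well as tamoxifen and shares its tamoxifen libraries with the one above. The rises were 0.69 (SE 0.12) for Prdx6, 0.60 (SE 0.12) for Hmox1, 0.50 (SE 0.08) for Gclc, 0.48 (SE 0.16) for Nqo1, 0.42 (SE 0.08) for Gpx3, 0.40 (SE 0.10) for Sod3 and 0.30 (SE 0.09) for Sod1. Their edgeR adjusted p-values ran from 0.000660 for Gclc to 0.0418 for Nqo1. Prdx6, Hmox1, Gclc, Gpx3 and Sod3 kept the call when any 1 library was left out. Nqo1 lost it in 5 such fits (0.35, edgeR adjusted p = 0.139 without tamoxifen replicate 1) and Sod1 in 4 (0.25, edgeR adjusted p = 0.0976 without saline replicate 4). The share of intron reads averaged 15.1% in the saline libraries, 13.1% with Miglyol and 13.3% with tamoxifen. With that share as a covariate only Gclc (0.51) and Gpx3 (0.42) stayed past the threshold. Prdx6 (0.58, edgeR adjusted p = 0.0519), Hmox1 (0.42, 0.0544), Sod3 (0.21, 0.167), Nqo1 (0.42, 0.221) and Sod1 (0.09, 0.464) lost the call. With exon-exon reads Gpx3 (0.34, edgeR adjusted p = 0.0533) and Nqo1 (0.59, 0.188) lost it.

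Hmox1, the haem-degrading enzyme, stood at 39.8, 41.0 and 45.8 CPM in tamoxifen replicates 1 to 3 and at 27.6 in replicate 4. The saline libraries held 27.3, 28.0, 23.7 and 23.0 CPM, and the Miglyol libraries 30.9, 27.2, 31.1 and 28.4. Replicate 4 therefore lay within the range of both controls, and the rise over Miglyol (0.39, SE 0.12, edgeR adjusted p = 0.0629) did not pass the threshold. Without tamoxifen replicate 4, Hmox1 (0.52, edgeR adjusted p = 0.000640) and Sod3 (0.34, 0.0445) passed as well, so that 5 of the 10 genes did, while over all genes the count went from 801 to 1077.

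Sod3, the extracellular dismutase, held 42.3, 48.6, 39.5 and 38.2 CPM with tamoxifen against 30.96, 36.6, 32.8 and 28.2 with saline. These 2 groups did not overlap. The Miglyol libraries, at 32.7, 33.1, 32.7 and 39.6 CPM, overlapped both, and tamoxifen against Miglyol gave 0.29 (SE 0.10, edgeR adjusted p = 0.0820). Nqo1 held 5.59 to 8.57 CPM with tamoxifen, 5.32 to 6.50 with Miglyol and 4.29 to 5.83 with saline, so neighbouring groups overlapped.

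The joint test of all 3 day 6 groups called 5 members, where 23.9% of all genes were called. Cat, Sod2 and Nox4 were not among the genes called by exon reads in any day 6 comparison of that fit. Cat held 157, 148, 157 and 215 CPM with tamoxifen, 173, 175, 167 and 174 with Miglyol, and 192, 207, 194 and 210.0 with saline. In 3 of the 4 tamoxifen libraries Cat was therefore below every control library, and in replicate 4 it was above all of them. Tamoxifen against saline gave -0.25 (SE 0.09, edgeR adjusted p = 0.0513). The difference passed with DESeq2 (-0.25, adjusted p = 0.0397) and without tamoxifen replicate 4 (-0.39, edgeR adjusted p = 0.000111). Sod2 gave 0.14 (SE 0.08, edgeR adjusted p = 0.214, 95% interval -0.02 to 0.29) in the same comparison, and 0.47 with exon-exon reads (edgeR adjusted p = 0.0284). Nox4 gave -0.00 (SE 0.10, edgeR adjusted p = 0.982, 95% interval -0.19 to 0.18), with 66.2 to 79.9 CPM with tamoxifen and 66.7 to 81.9 with saline.

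Miglyol by itself, against saline, gave 0 of the 10 genes past the threshold by edgeR, where 10.6% of all genes were called and 4182 genes had an unadjusted p below 0.05. DESeq2 called 1930 genes and 0 of these 10. The members' median was 0.11 beside 0.02 over all genes. The smallest p was that of Cat, at -0.23 (SE 0.09, edgeR adjusted p = 0.101), whose Miglyol libraries all lay below its saline libraries. With only these 2 groups in the fit, Cat (-0.23, edgeR adjusted p = 0.00696) and Prdx6 (0.17, edgeR adjusted p = 0.0394) were called.

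**Figure D2:**
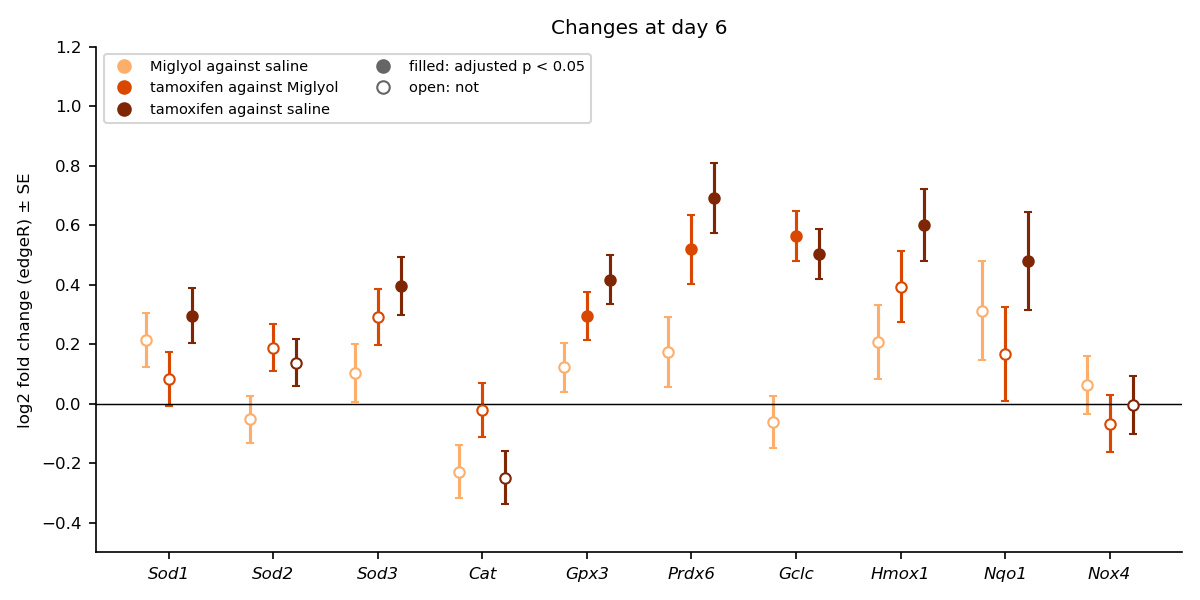
Log2 fold change of each gene in the 3 comparisons at day 6 (points, edgeR estimate; bars, SE; 4 libraries a group; filled, adjusted p below 0.05). Tamoxifen against saline has 7 filled points, tamoxifen against Miglyol 3 and Miglyol against saline 0; the comparisons share libraries.

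The tamoxifen libraries also differed in their cell markers. The summed level of 8 neutrophil markers was 744, 717, 971 and 256 CPM with tamoxifen, against 125 to 167 CPM with Miglyol and 63.1 to 77.9 with saline. Of those 8 markers 7 rose over Miglyol (median 2.20) and 8 over saline (median 3.29), and all were above 0 in each group. The library with the lowest neutrophil sum, replicate 4, is the one with the lowest Hmox1 and the highest Cat. Club cell markers summed to 7497 to 9414 CPM with tamoxifen and 5046 to 5567 with Miglyol (4 of 6 rose), and alveolar macrophage markers to 213 to 303 against 146 to 171 (4 of 9 rose). Of the alveolar type 2 markers 3 of 8 rose. The part of these shifts in the changes of Gclc, Prdx6, Gpx3, Hmox1 and Sod3 was not tested.

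Intron reads, which come from unspliced RNA of the same libraries, were tested in the same way (3.09% of genes called for tamoxifen against Miglyol). Gclc gave 0.57 (SE 0.14, edgeR adjusted p = 0.0228) and Prdx6 0.57 (SE 0.15, edgeR adjusted p = 0.0350), close in size to their exon changes. Gclc introns stood at 274, 149, 264 and 211 CPM of intron reads with tamoxifen and 154, 169, 157 and 119 with Miglyol, so the groups overlapped in 1 tamoxifen library. Against saline (25.5% called) the introns of Hmox1 (1.02, SE 0.30), Prdx6 (0.50, SE 0.15) and Sod1 (0.41, SE 0.12) rose, with edgeR adjusted p-values of 0.0125, 0.0153 and 0.0114. Gclc introns did not pass there (0.32, SE 0.14, edgeR adjusted p = 0.0877). Sod1 introns were already higher with Miglyol than with saline (0.40, SE 0.12, edgeR adjusted p = 0.0256, where 12% of genes were called), and tamoxifen against Miglyol gave 0.00 (SE 0.11, edgeR adjusted p = 0.993). Hmox1 introns rest on 5 to 25 reads a library.

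Nox4 introns fell by 0.54 with tamoxifen against saline (SE 0.15, edgeR adjusted p = 0.0133) while Nox4 exons did not pass. That comparison holds the oil as well. Miglyol against saline gave -0.35 for Nox4 introns (SE 0.15, edgeR adjusted p = 0.142). Tamoxifen against Miglyol gave -0.20 (SE 0.16, edgeR adjusted p = 0.599). Intron levels were 84.7, 139, 122 and 121 CPM of intron reads with tamoxifen, 124, 165, 146 and 97.8 with Miglyol, and 142, 183, 152 and 189 with saline, so every tamoxifen library was below every saline library. Whether the exon and intron changes of Nox4 differ was not tested. Sod3 and Nqo1 had too few intron reads for this test at day 6.

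**Figure D3:**
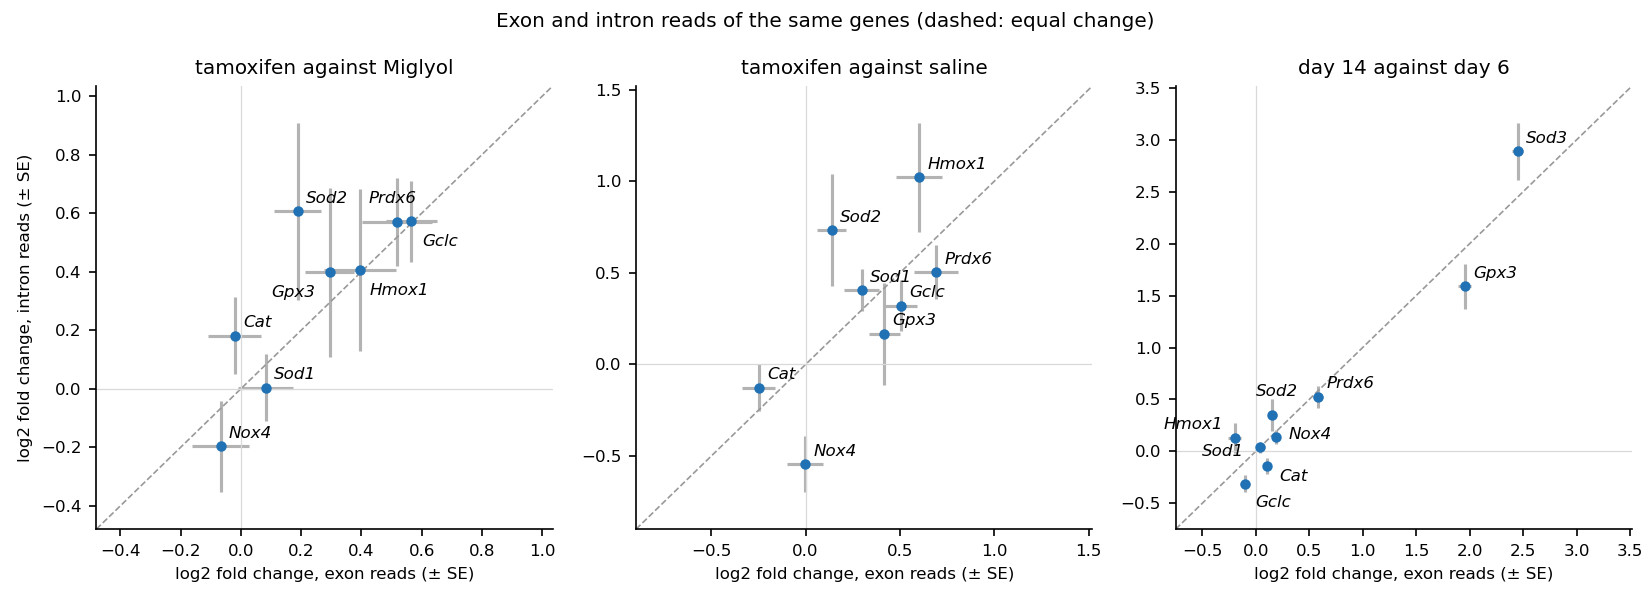
Log2 fold change from intron reads against that from exon reads for the members tested in both (points with SE bars; the dashed line is equal change). Gclc and Prdx6 lie near the line for tamoxifen against Miglyol, Nox4 lies below it against saline, and Sod3 and Gpx3 stand far from the other genes between ages.

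The wider redox system was followed through 9 lists of pathway genes, 128 of whose 150 genes were tested at day 6. The lists were also chosen with earlier results of these data known, so their counts are a description. For tamoxifen against Miglyol 21 rose and 3 fell, with a median of 0.03, where 3.71% of all genes rose and 5.68% were called in all. The NADPH oxidase list had the highest share, with 5 of 12 risen and 0 fallen (median 0.38). They included Ncf1 (0.83), Ncf4 (0.85) and Cybb (0.50), subunits of the phagocyte oxidase, and Rac2 (0.45), its GTPase in blood cells. These are genes of phagocytes. Neutrophil markers rose as given above, and 2 of 10 monocyte and interstitial macrophage markers were called higher (median 0.31). The part of cell makeup in the changes of these oxidase genes was not tested.

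Glutathione synthesis and recycling had 2 of 15 risen. These were Slc7a11 (1.28), the cystine transporter that feeds glutathione synthesis, with a mean of 4.23 against 1.75 CPM, and its heavy chain Slc3a2 (0.25). Gclm, which encodes the modifier subunit that pairs with Gclc and is named here after its value was seen, gave -0.05 (SE 0.08) and was not called. Of the other glutathione peroxidases 1 of 5 rose, Gpx2 (0.99), which reached 9.30 against 4.67 CPM. Detoxifying enzymes gave 6 risen and 2 fallen of 33, among them Osgin1 (0.80), Gsta4 (0.44) and Mgst1 (0.28), and Ugdh, which fell by 0.29. In the peroxiredoxin and thioredoxin list 2 of 25 rose, the methionine sulfoxide reductase Msrb1 (0.43) and Txnip (0.30), of whose reads only 15.3% mapped uniquely.

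Haem and iron genes gave 3 risen of 13, Hp (0.67), which encodes the haemoglobin-binding haptoglobin, the ferritin heavy chain Fth1 (0.50) and Alas1 (0.32). Of the NRF2 regulators 1 of 12 rose, Maff (0.53), while Nfe2l2 itself and Keap1 were not called. Xdh, which encodes xanthine oxidoreductase and is a source of superoxide, rose by 1.15 (SE 0.15), and the amine oxidase Aoc3 fell by 0.39. Without 1 library of the groups compared the count of pathway genes called ran from 11 to 34.

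Against saline, 46 of 128 pathway genes rose and 8 fell with tamoxifen (median 0.18), where 11.3% of all genes rose and 23.7% were called in all. NADPH oxidases had 8 of 12 risen, and the detoxifying enzymes 13 of 33, with Gsto1 at 0.68, Osgin1 at 1.11 and Gsta3 at 1.00. Gsr, glutathione reductase, rose by 0.70, Gpx2 by 1.41 and the metallothionein Mt1 by 0.54. Atp7a, a copper pump that loads secreted enzymes such as Sod3, fell by 0.49. Miglyol against saline gave 9 risen and 5 fallen of 128 pathway genes (median 0.13). In both directions together this share is near the 10.6% of all genes called, so that total says nothing particular to the pathway. Over all 14107 genes more fell (1028) than rose (470), and the difference in direction was not tested. Peroxiredoxins and thioredoxins held 6 of the 9 pathway genes that rose, with Prdx1 (0.25), Prdx3 (0.27) and Prdx4 (0.30), and the glutathione peroxidase Gpx1 rose by 0.30. The NRF2 antagonists Bach1 and Bach2 fell by 0.23 and 0.51, and Atp7a fell by 0.37.

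**Figure D4:**
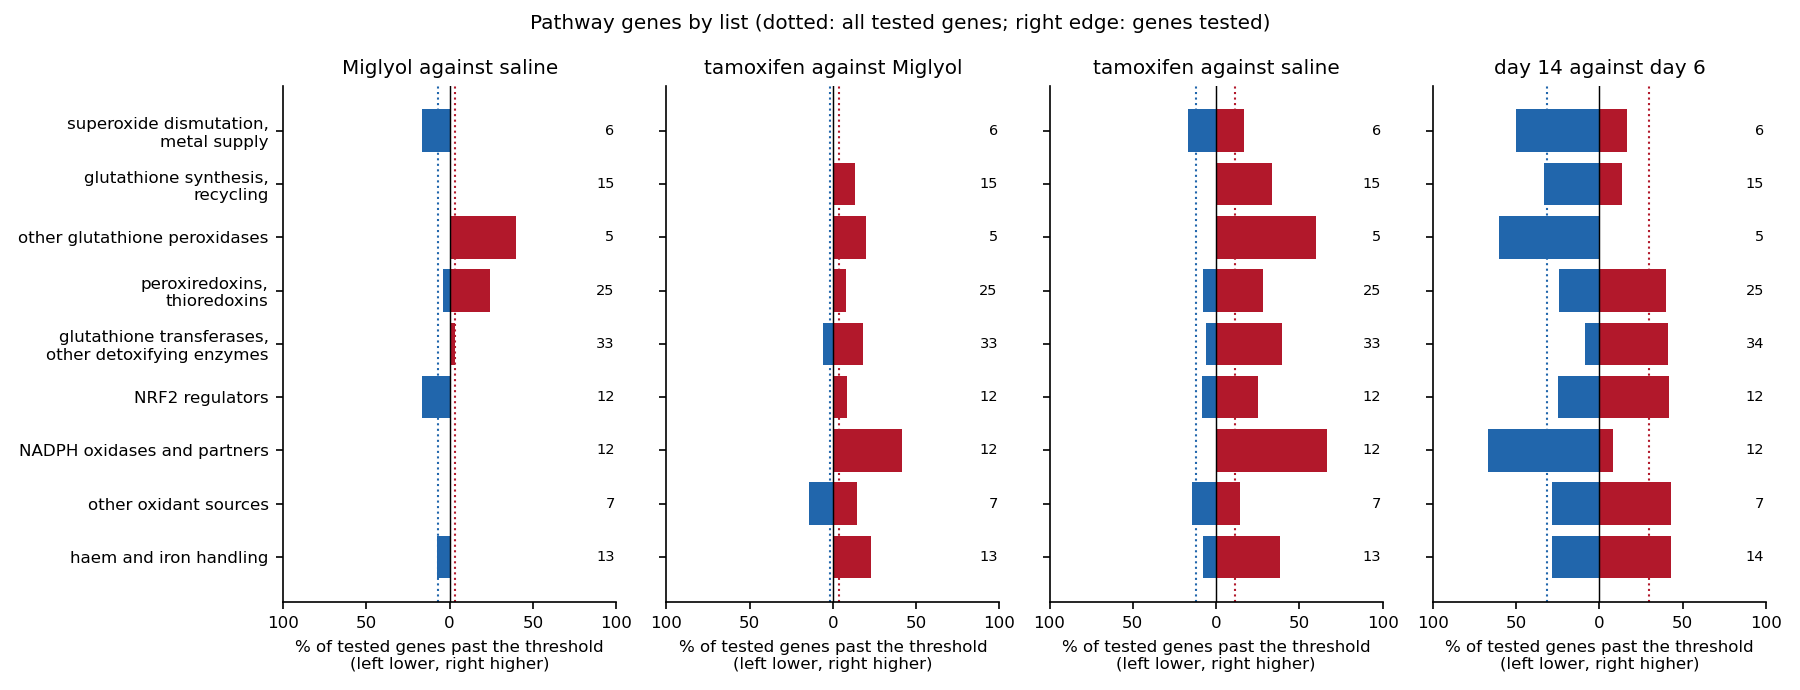
Percent of the tested genes of each pathway list past the threshold (left lower, right higher; linear axis) in 4 comparisons; dotted lines give the percent over all tested genes and the numbers at the right edge the genes tested. For tamoxifen against saline 8 of 12 genes of the NADPH oxidase list were higher, and between ages 8 of 12 were lower.

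Age gave the widest differences. The mean of the 5 day 14 groups was compared with that of the 3 day 6 groups. Of the 10 genes 6 were higher and 3 lower at day 14. Over all genes tested 61.4% were called, 30% higher and 31.3% lower. The members were chosen with results of these data known, so nothing is read from the count. The members' median was 0.13 beside -0.01 over all 14406 genes. Age cannot be told apart here from the injections, their schedule and the agent used to put the pups down.

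Sod3 and Gpx3, both secreted enzymes, were the genes with the largest difference. Sod3 ran from 28.2 to 48.6 CPM at day 6 (median 34.8) and from 152 to 262 at day 14 (median 198), and Gpx3 from 54.9 to 94.6 (median 66.6) and from 212 to 384 (median 253). In both cases all 20 libraries of day 14 lay above all 12 of day 6. The log2 differences were 2.45 (SE 0.05, edgeR adjusted p = 7.8e-27) for Sod3 and 1.95 (SE 0.06, edgeR adjusted p = 1.9e-22) for Gpx3, or 5.45-fold and 3.87-fold. Their introns differed by 2.89 (SE 0.27) and 1.59 (SE 0.22), where 46% of all genes were called, though Sod3 introns had at most 21 reads a library. Daily saline at day 14 against saline on 2 days at day 6, the nearest match of agent, kept both on the same side of the threshold.

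Prdx6 was 0.58 higher at day 14 (SE 0.05, edgeR adjusted p = 1.1e-12), from a median of 195 CPM to 316, and its introns 0.53 (SE 0.11). The groups overlapped because tamoxifen replicate 1 reached 379 CPM. Smaller rises were those of Nox4 (0.19, SE 0.04), Sod2 (0.15, SE 0.04) and Cat (0.10, SE 0.04, edgeR adjusted p = 0.0213). They did not hold in every day 14 group. Nox4 with water averaged 73.6 CPM, below the means of all day 6 groups (73.8 to 77.5). Cat with Scrambled 1 averaged 168.5 CPM, likewise below all of its day 6 means (169.3 to 201). The call for Cat was lost without tamoxifen replicate 1, 2 or 3.

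Nqo1 was lower at day 14 by -0.49 on the log2 scale (SE 0.09), at 2.33 to 5.56 CPM against 4.29 to 8.57. Hmox1 (-0.20, SE 0.06) and Gclc (-0.10, SE 0.04, edgeR adjusted p = 0.0486) were lower as well, and the call for Gclc was lost in 20 of the 32 fits that left out 1 library. In the comparison of the saline groups alone, Hmox1 (0.18) and Gclc (0.09) had the opposite sign and did not pass the threshold. The calls of Nqo1 (-0.13, edgeR adjusted p = 0.614), Sod2 (0.17, 0.104) and Cat (0.18, 0.0550) were lost there too. Sod1 did not pass over all groups (0.04, SE 0.04, edgeR adjusted p = 0.366, 95% interval -0.04 to 0.12) and did between the saline groups (0.22, edgeR adjusted p = 0.0272). Markers also differed between the day 14 and day 6 groups. Of endothelial markers 8 of 8 were higher (median 0.40), and 7 of 8 neutrophil (median -1.74) and 8 of 8 erythroid markers (median -0.97) were lower. Summed neutrophil markers averaged 67.8 CPM with saline, 149 with Miglyol and 672 with tamoxifen at day 6. At day 14 they averaged 62.6 CPM with daily saline and 74.4 in untreated libraries, near the day 6 saline value. The part of the markers in the differences of the members was not tested.

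Of 130 pathway genes tested between ages, 42 were higher and 37 lower at day 14, a share near the 61.4% of all genes called, so the count is no result about the pathway. The NADPH oxidases apart from Nox4 were mostly lower, 8 of 12 with 1 higher (median -0.28), including Nox1 (-1.18), Cybb (-0.54), Noxa1 (-0.72) and Ncf1 (-0.34). Ncf1 was at 0.01 in the saline groups alone. The metallothioneins Mt2 (-1.22) and Mt1 (-0.83), the endoplasmic reticulum peroxiredoxin Prdx4 (-0.84) and thioredoxin reductase Txnrd1 (-0.49) were lower. Higher at day 14 were Xdh (1.30), the iron exporter Slc40a1 (0.91), Gstt1 (0.88), epoxide hydrolase Ephx1 (0.82) and the selenium carrier Sepp1 (0.58), with glutathione transferases and detoxifying enzymes at 14 higher and 3 lower of 34.

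At day 14 the groups differed far less. The comparisons below share the water, untreated, daily saline or oligonucleotide libraries with each other, and each comparison's own values are given. Nox4 stood at 92.3, 98.5, 91.0 and 98.3 CPM in untreated libraries, and at 91.7, 94.9, 91.3 and 91.7 with daily saline. It was 76.3, 75.1, 66.3 and 76.5 with water, 77.9, 83.7, 79.2 and 79.5 with Scrambled 1, and 94.2, 88.6, 83.2 and 91.2 with Scrambled 2. Every water library was below every library of the other 4 day 14 groups. In order of their means the groups were untreated (95.02), daily saline (92.4), Scrambled 2 (89.3), Scrambled 1 (80.1) and water (73.6), and neighbours from untreated to Scrambled 1 overlapped.

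The log2 difference of Nox4 was -0.37 (SE 0.06) for water against untreated and 0.28 (SE 0.06) for Scrambled 2 against water, both given without a test. Without water replicate 3, the library with muscle and adipose markers and the lowest Nox4, they were -0.32 and 0.23. For daily saline against water, Nox4 gave 0.33 (SE 0.06, edgeR adjusted p = 0.00554), and 0.28 without that library. That comparison reuses the water libraries that brought Nox4 into the set and is no independent support. Nox4 introns were 0.26 (SE 0.11, edgeR adjusted p = 0.222) in it.

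Catalase was highest with daily saline, at 241, 220.0, 229 and 219.5 CPM, above every other library of day 14. Untreated libraries held 204, 173, 186 and 184, water 189, 165, 192 and 197, Scrambled 1 165, 176, 163 and 170.3, and Scrambled 2 203, 214, 203 and 197. The difference of daily saline from untreated was 0.28 (SE 0.06), given without a test, and its range was 0.25 to 0.30 when 1 library was left out. Against water it was 0.29 (SE 0.06, edgeR adjusted p = 0.0144), or 0.26 (edgeR adjusted p = 0.0579) without daily saline replicate 1, and again shares the daily saline libraries that named the gene. With the share of intron reads, lowest in the daily saline libraries, as a covariate, these 2 differences were 0.19 and 0.15. Cat introns gave -0.04 and -0.19 in the same comparisons.

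Cat also differed between the oligonucleotides, but the members were chosen with results of these data known, so its test there is no independent support. Cat was lower with Scrambled 1 than with Scrambled 2 by -0.28 on the log2 scale (SE 0.06, edgeR adjusted p = 0.0424), with no overlap of the 4 and 4 libraries, where 0.205% of all genes were called. The call was lost in 6 of the 8 fits that left out 1 library, with edgeR adjusted p-values of 0.102, 0.231 and 0.165 without Scrambled 2 replicates 1, 2 and 3 and of 0.169, 0.190 and 0.135 without Scrambled 1 replicates 1, 3 and 4.

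Sod3 was highest with Scrambled 1, at 221, 208, 262 and 235 CPM, and lowest with water, at 162, 165, 174 and 152. Untreated libraries held 179, 223, 206 and 193, daily saline 182, 211, 217 and 202, and Scrambled 2 192, 166, 171 and 226. Only Scrambled 2 overlapped water. Scrambled 1 against water gave 0.50 (SE 0.09), without a test, water against untreated -0.29 (SE 0.09, edgeR adjusted p = 0.322) and daily saline against water 0.31 (SE 0.09, edgeR adjusted p = 0.0592). The last 2 comparisons reuse the water libraries that brought Sod3 into the set and are no independent support. With exon-exon reads the sign of Sod3 turned, to -0.14 for Scrambled 1 against water and -0.42 for daily saline against water. By group means Gpx3 had the same order at its ends, with 307, 277, 352 and 315 CPM with Scrambled 1 and 221, 229, 214 and 212 with water. Its difference between them, 0.51 (SE 0.12), did not pass in the edgeR fit of all 20 libraries (adjusted p = 0.0886). It passed with DESeq2 (adjusted p = 0.00218) and in the edgeR fit of only these 2 groups (adjusted p = 0.00486).

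Counts of members called at day 14 were small in every comparison. For daily saline against water, 2 genes were called, Cat and Nox4, where 2.74% of all genes were. Both had been picked from libraries of this comparison, so nothing is read from the count. The members' median was 0.14 beside -0.00. In each of 3 comparisons the only member called was the one given above without a test, so nothing is read from these counts. The member was Cat in daily saline against untreated (0.233% of all genes called). It was Nox4 in water against untreated (0.0494%) and Sod3 in Scrambled 1 against water (0.12%). The joint test of all 5 groups called the same 3 genes (1.17% of all genes called, of which nothing is read either). For Scrambled 2 against water, edgeR called 0 members and 0% of all genes, DESeq2 called 5 genes in all, and 755 genes had an unadjusted p below 0.05. Sod1, Sod2, Prdx6, Hmox1, Nqo1, Gclc and Gpx3 were called in 0 of the day 14 comparisons by the edgeR fit of all 20 libraries, and so were all pathway genes tested.

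The genes were also compared by how they moved together over the 32 libraries after the mean of each age was subtracted from log2 CPM. These correlations describe libraries that share treatment, depth and cell makeup, and carry no test. Sod3 and Gpx3 gave the highest value over all 32 libraries, with Pearson's r of 0.79, and gave 0.86 over the 20 of day 14, 0.67 over the 12 of day 6 and 0.55 after the group means were also removed. Sod1 and Sod3 gave 0.58 over all, 0.88 at day 6 and 0.75 within groups, above Sod3 and Gpx3 in the last 2. Hmox1 and Gclc gave 0.70 over all, 0.77 over the 12 of day 6 and 0.49 within groups. At day 6, Gpx3 and Prdx6 gave 0.88, and Cat and Hmox1 ran opposite to each other at -0.83. Cat and Hmox1 gave -0.23 over all 32 libraries and 0.49 over the 20 of day 14. Values within groups are over all 32 libraries, and Cat and Hmox1 gave -0.32 there. No value within groups was taken for day 6 alone.

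**Figure D5:**
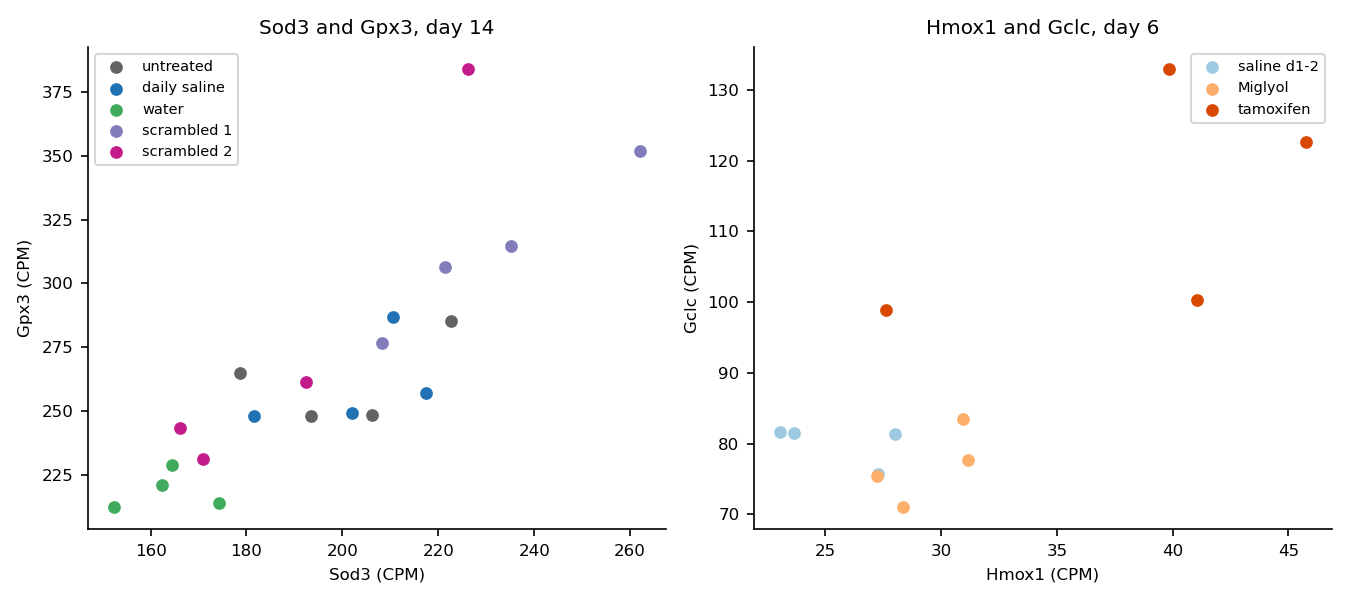
Left, Gpx3 against Sod3 (CPM) in the 20 libraries of day 14; right, Gclc against Hmox1 (CPM) in the 12 libraries of day 6, coloured by group (linear axes that do not start at 0). The 4 water libraries lie at the lower left and the highest Gpx3 value is that of Scrambled 2 replicate 4 (384 CPM) in the left panel, and the 4 tamoxifen libraries are the highest for Gclc on the right.

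Among 13412 other genes tested, those with the most similar pattern to Nox4 were St6gal1 (r = 0.72), Rftn2 (0.71) and Atxn7l3b (0.70). For Cat they were Efcab14 (0.85), Coa5 (0.80) and Prrg3 (0.78), and for Sod3 they were Igfbp7 (0.89), Ly6e (0.84) and Ypel3 (0.84). In the 20 day 14 libraries alone the same 9 genes gave 0.68 to 0.88. Those libraries are part of the 32 that picked the genes, so these values are no independent support. Ranked by day 14 alone, the genes ran from 1 (Igfbp7 for Sod3) to 96 (Prrg3 for Cat).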

How the data were processed

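Per the labels' protocols, lungs were perfused and kept in RNAlater, and polyA-selected stranded libraries were made. Per the submitters' processing notes, reads were demultiplexed with bcl2fastq 2.0; which aligner, build and strand setting followed is not given in the sources used here. Counts of exon, intron and exon-exon reads for 46165 records, and TPM values, were deposited as made by the authors. Deposited starts of the members lie within 20 bases of GRCm38.p6 except for Nox4 (1975 bases).

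Total exon counts were tested in R 4.3.3 with the robust quasi-likelihood F test of edgeR 4.0.16 (TMM scaling, filterByExpr, Benjamini-Hochberg adjustment over all genes tested, threshold 0.05), in 1 fit for the 20 libraries of day 14, 1 for the 12 of day 6 and 1 for all 32 between ages. The test was checked on simulated counts with 200 genes changed. Fold changes are log2. Members and lists were chosen with earlier results of these data known. A member was named with its test where it passed, otherwise that with the smallest p; per pathway list, up to 4 called genes with the smallest p and a mean of at least 1 CPM. Replicates differed beyond sampling noise in all 48 pairs (chi-square per gene 2.38 to 16.6), so none was merged. Alternatives were DESeq2 1.42.0, other scaling, filters, reads, covariates, samples and a replicate block.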

Additional observations from a re-analysis of the deposited data

Results flagged for a closer look

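Of 80 groups of 4 libraries (10 genes in 8 groups), 9 held a library far from the other 3, where chance gives about 1 in 20. They were replicate 4 for Cat with tamoxifen (215 CPM), replicate 2 for Sod2 with saline on days 1 and 2 (56.0 CPM), replicate 3 for Sod2 with water (76.3 CPM) and replicate 4 for Sod3 with Miglyol (39.6 CPM). For Hmox1 it was replicate 4 with daily saline (23.8 CPM), for Nqo1 replicate 4 with saline on days 1 and 2 (5.83 CPM) and for Gclc replicate 1 of the same group (75.7 CPM). Nox4 had replicate 2 with daily saline (94.9 CPM) and replicate 3 with water (66.3 CPM). Tamoxifen replicate 4 is also the tamoxifen library with the lowest neutrophil sum (256 CPM) and the highest erythroid sum (27910 CPM, against 11724 to 14790 in the other 3). Water replicate 3 is the library with 397 CPM of skeletal muscle markers. The part of those markers in the values was not tested.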

How the results depend on the processing

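Each comparison was repeated with DESeq2, other scaling, no filter on low counts, unique or exon-exon reads, only the libraries of the groups compared, the replicate number as a block, Xist or the share of intron reads as a covariate, and without each library in turn. RLE scaling, unique reads and no filter moved none of the counts of members or pathway genes by over 1.5 times. The cause of each change was not tested.

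Members called (main count first) were as follows. Nothing is read from counts that hold a pair of gene and comparison given above without a test. Daily saline against untreated went from 1 to 0 with exon-exon reads, Xist or intron share, and to 0 to 1 without 1 library. Water against untreated went from 1 to 0 with exon-exon reads or only the groups compared, and stayed at 1 without 1 library. Daily saline against water went from 2 to 0 with exon-exon reads, 4 with only the groups compared and 1 with intron share (1 to 2 without 1 library). Scrambled 1 against water went from 1 to 2 with DESeq2 or only the groups compared and 0 with exon-exon reads or Xist (0 to 1). Scrambled 2 against water went from 0 to 1 with DESeq2 (0). Scrambled 1 against Scrambled 2 went from 1 to 0 with exon-exon reads, only the groups compared, the block, Xist or intron share (0 to 3). The joint test of day 14 went from 3 to 5 with DESeq2, 0 with exon-exon reads and 1 with intron share. Miglyol against saline went from 0 to 2 with only the groups compared (0). Tamoxifen against Miglyol went from 3 to 1 with exon-exon reads or only the groups compared and 5 with intron share (2 to 5). Tamoxifen against saline went from 7 to 2 with intron share (5 to 8). The age comparison went from 9 to 5 with saline groups only (7 to 9).

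Pathway genes called went from 0 to 3 with DESeq2 and 1 with only the groups compared or the block for daily saline against water (0 to 2 without 1 library). They went from 0 to 1 with DESeq2 for Scrambled 1 against water, from 0 to 1 with intron share for Scrambled 1 against Scrambled 2 (0 to 1), and from 0 to 2 with DESeq2 in the joint test of day 14. Miglyol against saline went from 14 to 25 with exon-exon reads, 24 with only the groups compared, 3 with the block and 0 with intron share (2 to 15). Tamoxifen against Miglyol went from 24 to 4 with exon-exon reads and 13 with only the groups compared (11 to 34). Tamoxifen against saline went from 54 to 29 with intron share (38 to 58). The age comparison went from 79 to 50 with exon-exon reads and 52 with saline groups only (74 to 82).

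Sign changes were those of Sod3 with exon-exon reads, -0.42 for daily saline against water and -0.14 for Scrambled 1 against water, of Bach2 between ages with exon-exon reads (0.0058), and, between ages with saline groups only, of Hmox1 (0.18), Gclc (0.090), Ncf1 (0.013), Gpx1 (0.052), Gpx2 (0.35) and Gpx7 (0.061). None of these passed the threshold. The ranges over all genes below leave out the fits without 1 library. Those fits reached 205 genes between the oligonucleotides and 3924 for tamoxifen against saline. Over all genes the counts ranged from 2 (intron share) to 2573 (only the groups compared) around 1498 for Miglyol against saline, 110 (exon-exon reads) to 1268 (intron share) around 801 for tamoxifen against Miglyol, 1190 (intron share) to 3367 (Xist) around 3343 for tamoxifen against saline and 5208 to 9086 around 8842 between ages. At day 14 they were 0 to 108 around 33 for daily saline against untreated, 0 to 23 around 7 for water against untreated, 12 to 570 around 389 for daily saline against water, 0 to 98 around 17 for Scrambled 1 against water, 0 to 5 around 0 for Scrambled 2 against water and 6 to 65 around 29 between the oligonucleotides, the highest each time with DESeq2.

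Replicate numbers are shared by all groups, but libraries of 1 number did not deviate together (r from -0.44 to 0.48, over 0.1 for every number in none of the comparisons). With the replicate block the members that lost their call were Gpx3 in tamoxifen against Miglyol (0.29, edgeR adjusted p = 0.0542), Sod1 in tamoxifen against saline (0.29, edgeR adjusted p = 0.0600), Cat between the oligonucleotides (-0.28, edgeR adjusted p = 0.0623) and Gclc between ages (-0.10, edgeR adjusted p = 0.0552), and Cat in tamoxifen against saline gained one (-0.26, edgeR adjusted p = 0.0428). The block changed no other call of a member. Nqo1, with 22 to 83 reads a library, and the introns of Sod3, Hmox1 and Nqo1 are limited by depth.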
